A study of Mus musculus with 95 samples.

Results

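RING1B is a catalytic subunit of Polycomb repressive complex 1, and its binding was mapped by ChIP-seq in wild-type mouse embryonic stem cells and in 6 lines labelled as lacking different PCGF proteins. The peak lists were chosen by antibody: 8 of the 95 samples were RING1B ChIP-seq samples, and they held 34839 of the 1189711 peaks in all lists of the series. The question was which RING1B sites each PCGF protein is needed for. Wild-type cells were E14 embryonic stem cells. The knockout lines derived from them were Pcgf1-/-, Pcgf2/4-/-, Pcgf3/5-/-, Pcgf6-/-, Pcgf1/2/4-/- and Pcgf3/5/6-/-, with PCGF4 being the protein made from Bmi1. All cells, wild-type included, grew on gelatin in serum with the cytokine LIF and with blockers of the kinases GSK3β and MEK1/2. Knockouts were made with a Cas9 plasmid, puromycin selection and clone picking, and lines lacking several genes came from further editing of an edited clone, so each line stands for its clone. Pcgf1/2/4-/- had 2 RING1B libraries and every other line had 1, so no test between lines was made for peaks, and the differences below have no replicate check except in Pcgf1/2/4-/-. The same lines also had RNA-seq with 2 libraries each, 14 in all.

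RING1A or RING1B pairs with 1 PCGF protein in each complex and places ubiquitin on histone H2A. PCGF2 and PCGF4 belong mainly to canonical complexes, whose CBX subunits read the H3K27me3 mark set by Polycomb repressive complex 2, of which SUZ12 is a core subunit. PCGF1, PCGF3, PCGF5 and PCGF6 form variant complexes with RYBP or YAF2. PCGF1 works with the CpG-binding protein KDM2B and with BCOR, and PCGF6 with the DNA-binding proteins MGA, MAX and E2F6 at promoters of germline genes.

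Stretches of 4 RING1B peaks show the kinds of sequence behind the results: a peak called in every list, a germline promoter without a peak in the lines targeted for Pcgf6, a Hox gene without a peak in Pcgf1/2/4-/-, and a peak absent from the wild-type list. They were read from the mouse build NCBIM37 (mm9) on the plus strand, 5′ to 3′, and leave out annotated untranslated regions. Capitals mark the E-box CACGTG, the kind of site that MAX-containing dimers and USF proteins bind. In all 4 stretches every other base is in lower case.
Nr5a1, chr2:38566107-38566277, a coding exon and its intron, in a wild-type peak of fold 35.1 that was called in all 7 knockout lists: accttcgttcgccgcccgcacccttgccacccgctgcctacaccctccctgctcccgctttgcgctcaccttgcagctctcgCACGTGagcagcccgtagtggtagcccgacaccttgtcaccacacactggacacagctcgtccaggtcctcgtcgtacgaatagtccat
Zcwpw1, chr5:138228868-138229025, 5′ of the annotated start, in a wild-type peak of fold 18.4 not called in Pcgf6-/- and Pcgf3/5/6-/-: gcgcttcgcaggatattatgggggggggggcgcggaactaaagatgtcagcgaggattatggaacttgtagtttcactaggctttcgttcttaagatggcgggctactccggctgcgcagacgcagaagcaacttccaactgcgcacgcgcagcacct
Hoxd9, chr2:74536651-74536850, a coding exon, in a wild-type peak of fold 30.0 not called in either Pcgf1/2/4-/- list: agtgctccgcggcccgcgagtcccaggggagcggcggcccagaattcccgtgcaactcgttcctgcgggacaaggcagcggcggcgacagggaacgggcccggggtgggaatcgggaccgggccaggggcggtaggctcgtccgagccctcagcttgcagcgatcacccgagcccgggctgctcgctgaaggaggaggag
Hoxa4, chr6:52142312-52142511, upstream of the start, in a Pcgf6-/- peak of fold 8.66 with no wild-type peak over it: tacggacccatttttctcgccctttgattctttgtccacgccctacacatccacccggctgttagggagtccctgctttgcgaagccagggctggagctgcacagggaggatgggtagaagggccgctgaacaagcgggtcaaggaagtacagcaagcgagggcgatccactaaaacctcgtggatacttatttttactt
The Nr5a1 stretch held 1 CACGTG and the 500 bp around its summit held 2. The Zcwpw1 stretch held none, and the 500 bp around its summit held 1 copy of GCGGGAA, the letters of an E2F-type site, outside the stretch shown. Neither motif, nor the T-box-type letters AGGTGTGA, occurred in the 500 bp windows of Hoxd9 and Hoxa4. The stretches are rich in the dinucleotide CG, with 15, 13, 23 and 10 copies in the order shown. Around 22359 protein-coding starts, windows of the same 500 bp held CACGTG in 9.91%, GCGGGAA or its reverse complement TTCCCGC in 8.63% and AGGTGTGA or its reverse complement TCACACCT in 1.72%. CACGTG is its own reverse complement.

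The labels were checked before the peaks were compared. RNA of Pcgf1 was at 66.1 and 61.0 CPM (counts scaled to a common library size) in the wild-type libraries, 4.81 and 3.20 in Pcgf1-/- and 0.534 and 0.903 in Pcgf1/2/4-/-. Pcgf6 was at 36.2 and 34.3 CPM in wild-type and at 0 in both Pcgf6-/- libraries, but at 42.0 and 37.2 CPM in the libraries labelled Pcgf3/5/6-/-, where it was not lowered (log2 fold change 0.17, edgeR quasi-likelihood test, adjusted p = 0.338). Pcgf3 and Pcgf5 were not lowered there either (Pcgf3 -0.23, adjusted p = 0.448; Pcgf5 0.33, adjusted p = 0.206), so none of the 3 targeted genes was lowered in Pcgf3/5/6-/-. In Pcgf3/5-/- Pcgf5 was lowered from 13.0 and 10.8 to 5.48 and 4.60 CPM (-1.22, adjusted p = 0.00175), and Pcgf3 did not pass the test (-0.40, adjusted p = 0.242). Pcgf5 was lowered as much in Pcgf1-/- (-1.28) and Pcgf2/4-/- (-1.17), where it was not targeted. Pcgf2 was not lowered in the lines targeted for it (42.9 and 48.9 CPM in wild-type, 41.0 and 54.8 in Pcgf2/4-/-, 57.1 and 56.9 in Pcgf1/2/4-/-), nor was Bmi1 (16.1 and 14.2 CPM in wild-type, 12.1 and 14.1 in Pcgf2/4-/-, 13.9 and 19.9 in Pcgf1/2/4-/-). A Cas9 edit need not lower the transcript, so RNA leaves these labels untested. The PCGF6 antibody gave 1868 peaks in wild-type and 1042 in Pcgf6-/-, the PCGF2 antibody 4472 in wild-type and 1050 in Pcgf2/4-/-, the PCGF1 antibody 736 and 15 in Pcgf1-/-, and the PCGF3 antibody 223 and 21 in Pcgf3/5-/-. PCGF ChIP-seq of the libraries labelled Pcgf1/2/4-/- and Pcgf3/5/6-/- was not analysed here. RNA of Rnf2, which encodes RING1B, was at 270 and 274 CPM in wild-type and passed the test in none of the 6 lines (adjusted p 0.249 to 0.949).

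All lists shared a lowest -log10 p of 10.0. The number of reads behind a list is unknown, and list length can move with it. A wild-type peak was called lost when no knockout peak shared at least 1 bp with it, and kept otherwise, and a knockout peak was called new when it met no wild-type peak. The wild-type list held 5454 RING1B peaks with a median width of 1040 bp (200 to 15151 bp). Its authors' fold enrichment over background, the peak height used here as signal, had a median of 8.72 (3.25 to 35.1) and is compared only within a list. Of the wild-type peaks, 74.2% lay within 2.5 kb of a protein-coding start, 8.18% had their summit in another exon, 5.30% in an intron and 12.4% between genes. SUZ12 peaks covered 89.5% of them, H3K4me3 peaks 88.2%, H3K27me3 peaks 59.5%, PCGF2 peaks 58.1%, PCGF6 peaks 15.2%, PCGF1 peaks 10.8% and PCGF3 peaks 0.862%.

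RING1B peaks were lost in every line, most in the 2 triple knockouts. In Pcgf1-/- 953 wild-type peaks were lost (17.5%, Wilson 95% interval 16.5 to 18.5%), in Pcgf3/5-/- 954 (17.5%, 16.5 to 18.5%), in Pcgf6-/- 1317 (24.1%, 23.0 to 25.3%) and in Pcgf2/4-/- 1605 (29.4%, 28.2 to 30.7%). In Pcgf3/5/6-/- 2902 were lost (53.2%, 51.9 to 54.5%). The Pcgf1/2/4-/- libraries lost 4157 (76.2%) and 4358 (79.9%), a mean of 78.1% ± 2.61 (SD, n = 2), and both lacked the same 3986 (73.1%). These intervals cover counting error only. The order differed in lists of equal length, each shortened to the 1814 peaks of highest -log10 q. Pcgf2/4-/- then lost 38.6% of the equally shortened wild-type list and Pcgf3/5/6-/- 24.9%, the reverse of their order in the full lists. Pcgf1/2/4-/- still lost 64.8% and 69.8%. Shortening also leaves out the weaker peaks, so list length and peak strength cannot be told apart here.

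**Figure D1:**
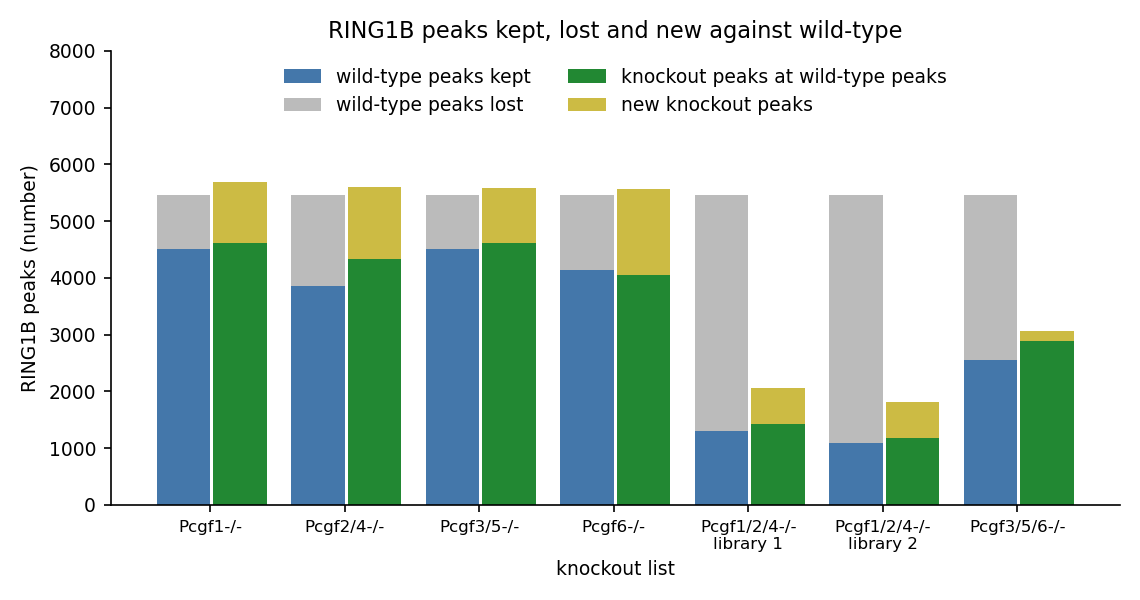
Number of RING1B peaks (vertical axis) for each knockout list (horizontal axis), 1 library each. The left bar of a pair splits the 5454 wild-type peaks into kept and lost, and the right bar splits the knockout's own peaks into those at wild-type peaks and new ones. Loss runs from 953 peaks in Pcgf1-/- to 4358 in the Pcgf1/2/4-/- library 2, and new peaks from 177 in Pcgf3/5/6-/- to 1519 in Pcgf6-/-.

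New peaks made up a share of each knockout list. They numbered 1076 of 5696 in Pcgf1-/- (18.9%), 980 of 5586 in Pcgf3/5-/- (17.5%), 1267 of 5607 in Pcgf2/4-/- (22.6%) and 1519 of 5563 in Pcgf6-/- (27.3%, 26.2 to 28.5%). The Pcgf1/2/4-/- libraries had 625 of 2051 (30.5%) and 635 of 1814 (35%), a mean of 32.7% ± 3.21 (SD, n = 2), and 371 of the first library's new peaks were also in the second, 59.4%. Pcgf3/5/6-/- had 177 of 3068 (5.77%, 5.00 to 6.65%), the smallest share of the 7 lists. New peaks were narrow, with median widths from 331 bp in the second Pcgf1/2/4-/- library to 559 bp in Pcgf6-/-. The 2 Pcgf1/2/4-/- lists shared 1330 of 2051 peaks of the first (64.8%) and 1354 of 1814 of the second (74.6%), which is the only measure here of how far replicate lists differ. Wild-type peaks called in 1 of these 2 libraries alone numbered 543, with a median wild-type fold of 12.7.

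Loss showed in width as well as in number. The median kept peak had 99.6% of its wild-type length under knockout peaks in Pcgf6-/-, 95.6% in Pcgf1-/- and 91.8% in Pcgf3/5-/-. That share was 73.7% in Pcgf2/4-/-, in Pcgf3/5/6-/- 72.0%, and in Pcgf1/2/4-/- 49.1% and 46.4%. The Pcgf2/4-/- list was as long as the wild-type list but covered 4.78 Mb against 7.47 Mb, its widest peak was 5563 bp, and it held 3 peaks of 5 kb or more where wild-type held 101. Pcgf6-/- moved the other way, with 9.14 Mb covered, 277 peaks of 5 kb or more and a widest peak of 20775 bp. In Pcgf6-/-, 281 peaks each spanned at least 2 wild-type peaks, against 14 in Pcgf2/4-/-. The Pcgf1/2/4-/- lists covered 1.19 and 0.942 Mb with no peak of 5 kb, and Pcgf3/5/6-/- covered 3.81 Mb with 28.

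Weak wild-type peaks were lost most often in all lines, but the lines parted at strong ones. The lowest band of wild-type fold (3.25 to 6.33, 1364 peaks) lost 44.0% in Pcgf1-/-, 47.5% in Pcgf3/5-/-, 48.8% in Pcgf6-/-, 58.1% in Pcgf2/4-/-, 90.1% in Pcgf3/5/6-/- and 85.8% and 87.0% in Pcgf1/2/4-/-. In the highest band (20.0 to 35.1, 545 peaks), at most 1.28% was lost in any list but those of Pcgf1/2/4-/-, which lost 39.6% and 50.6%. Pcgf3/5/6-/- lost 40.4% at folds of 8.72 to 13.8 and 9.78% at 13.8 to 20.0, where Pcgf1/2/4-/- still lost 67.1% and 74.2%. Width gave the same split: of the 101 wild-type peaks of 5 kb or more, 41 and 53 were lost in the 2 Pcgf1/2/4-/- libraries (40.6% and 52.5%) and 0 in each other list. The 862 peaks under 500 bp lost between 44.7% in Pcgf1-/- and 89.0% in Pcgf3/5/6-/-. At a fixed calling threshold a weak peak needs a smaller drop to be lost, and how much of the loss of weak peaks comes from that was not tested.

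**Figure D2:**
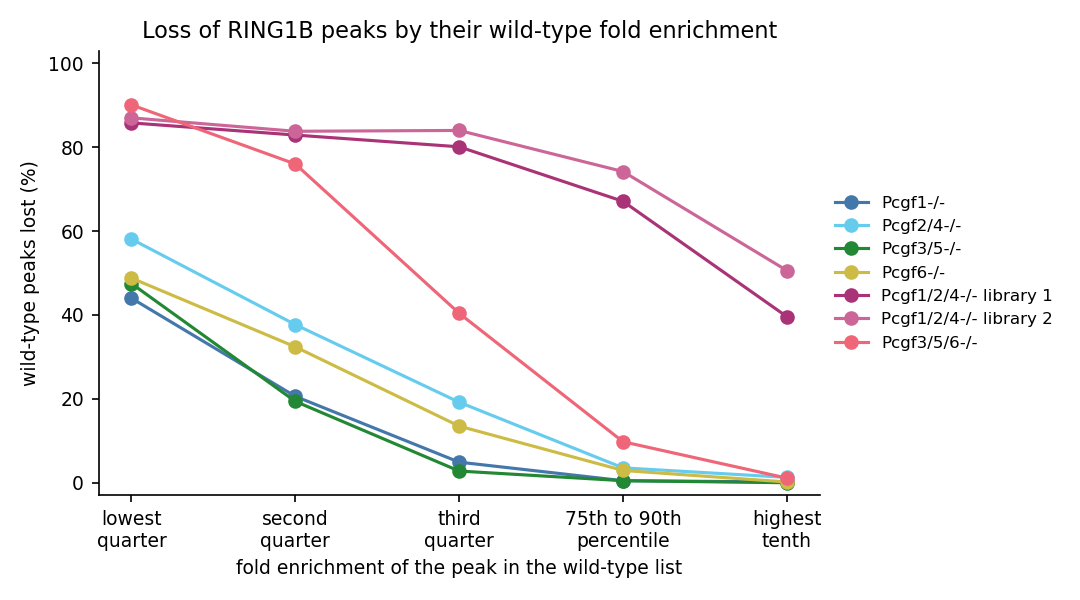
Share of wild-type RING1B peaks lost (vertical axis, %) in 5 bands of wild-type fold enrichment (horizontal axis), 1 line per knockout list. In the band of highest fold the Pcgf1/2/4-/- lists stay at 39.6% and 50.6% and the other 5 lists lie at or below 1.28%.

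Loss went with whether PCGF6 or PCGF2 had been called at a wild-type peak, and the direction differed between lines. The 389 peaks with PCGF6 but not PCGF2 lost 90.5% in Pcgf6-/- and 98.5% in Pcgf3/5/6-/-, but 5.66% in Pcgf2/4-/-, 12.1% in Pcgf1-/-, 11.6% in Pcgf3/5-/- and 17.7% and 19.5% in Pcgf1/2/4-/-. The 2728 peaks with PCGF2 but not PCGF6 did the opposite: they lost 81.9% and 87.4% in Pcgf1/2/4-/-, 27.2% in Pcgf3/5/6-/-, 17.0% in Pcgf2/4-/- and 6.45% in Pcgf6-/-. Peaks with both proteins, 439 in number, lay between these groups in Pcgf6-/- (22.1%) and Pcgf3/5/6-/- (36.4%). They lost 13.0% and 19.4% in Pcgf1/2/4-/- and under 1% in the other 3 lists. The 587 peaks with PCGF1 lost 6.64% in Pcgf1-/- itself and 57.2% and 61.7% in Pcgf1/2/4-/-. These shares lie below those of all wild-type peaks (17.5% in Pcgf1-/-, 76.2% and 79.9% in Pcgf1/2/4-/-). All peaks with PCGF2 lost 14.8% in Pcgf2/4-/-, also below the 29.4% of all wild-type peaks.

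The split by PCGF6 held within bands of signal. In the lowest band of wild-type fold, peaks with PCGF6 lost 94.9% in Pcgf6-/- and those without it 42.0%, and at folds of 8.72 to 13.8 57.5% and 6.84%. In lines not targeted for Pcgf6, peaks with PCGF6 were lost less often in the lowest band. The shares with and without it were 10.2% and 65.2% in Pcgf2/4-/-, 18.8% and 47.7% in Pcgf1-/- and 19.3% and 51.7% in Pcgf3/5-/-. In the first Pcgf1/2/4-/- library the same comparison gave 20.5% and 95.5% in the lowest band and 8.96% and 78.5% at folds of 13.8 to 20.0. For PCGF2 no split showed there in the lowest band, with 85.6% of peaks with it and 85.8% without it lost. At folds of 8.72 to 13.8 the shares were 82.3% and 61.8%. In Pcgf2/4-/- peaks with PCGF2 were lost less often than those without it, 41.5% against 59.7% in the lowest band. At folds of 8.72 to 13.8 they lost 18.3% against 26.3%. The 1852 peaks on which none of PCGF1, PCGF2, PCGF3 and PCGF6 was called had a median fold of 6.10. They lost between 36.9% (Pcgf6-/-) and 95.6% (the second Pcgf1/2/4-/- library). Only 47 peaks carried PCGF3, of which 29 were lost in Pcgf6-/- (61.7%) and 1 in Pcgf3/5-/- (2.13%). Of all wild-type peaks, 24.1% and 17.5% were lost in these lines.

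**Figure D3:**
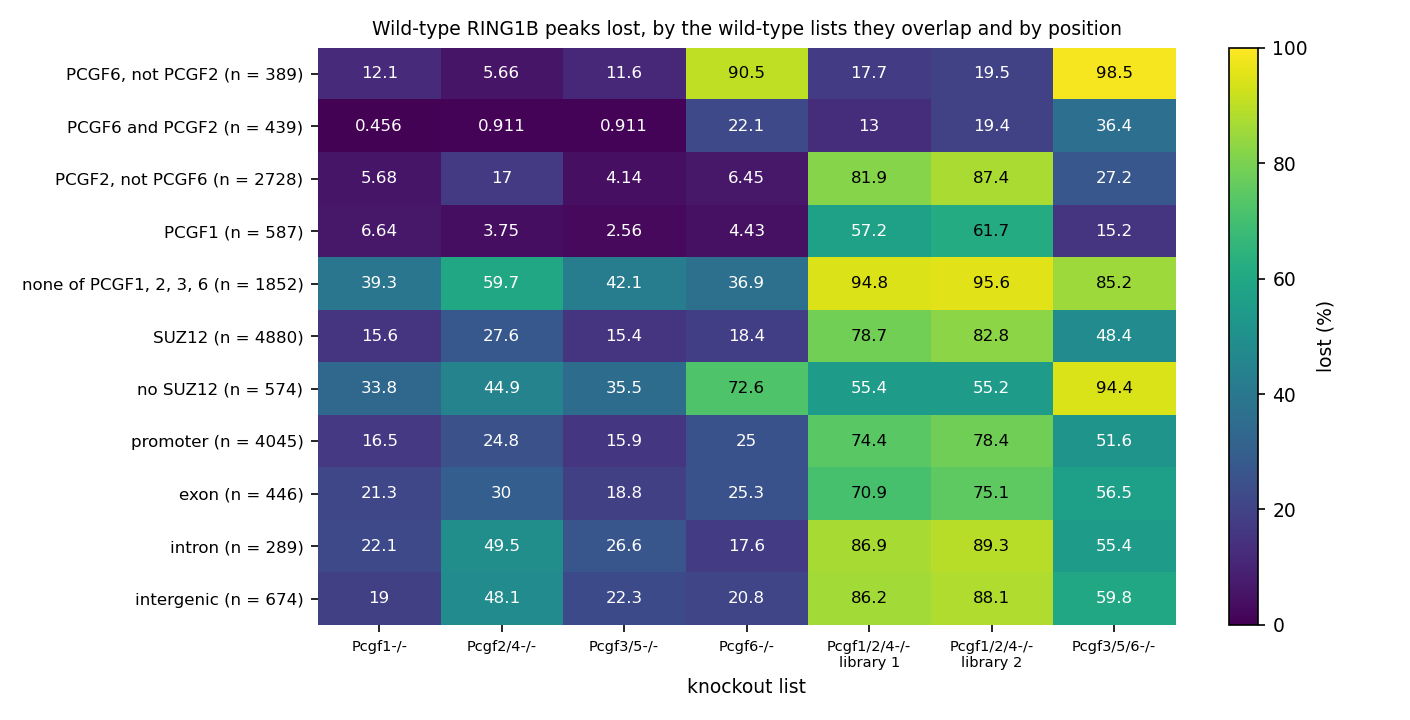
Share of wild-type RING1B peaks lost (colour and number, %) in each knockout list (columns), by the other wild-type lists that the peak overlaps and by its position (rows, with the number of peaks). Peaks with PCGF6 and no PCGF2 reach 90.5% and 98.5% in the lines targeted for Pcgf6, and peaks with PCGF2 and no PCGF6 reach 81.9% and 87.4% in Pcgf1/2/4-/-.

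SUZ12 and position divided the peaks as well. Of the 574 wild-type RING1B peaks without SUZ12, 72.6% were lost in Pcgf6-/- and 94.4% in Pcgf3/5/6-/-, against 18.4% and 48.4% of those with SUZ12. In Pcgf1/2/4-/- the order was the other way, 55.4% and 55.2% without SUZ12 and 78.7% and 82.8% with it. Loss in Pcgf2/4-/- was greater away from promoters: 49.5% of intronic and 48.1% of intergenic peaks against 24.8% of promoter peaks. This held within bands of fold, with 74.7% of intronic and intergenic peaks and 52.9% of promoter peaks lost in the lowest band and 33.5% and 16.6% at folds of 8.72 to 13.8. Lost peaks of Pcgf2/4-/- lay a median of 1090 bp from a start, and kept ones 496 bp. In Pcgf6-/- lost peaks lay nearer to starts (374 bp) than kept ones (669 bp), and 76.9% and 73.3% of them were promoter peaks. In the SUZ12 list of the same line, SUZ12 was called at 79.2% of the RING1B peaks lost in Pcgf2/4-/- (83.9% in wild-type). It was called at 65.7% of those lost in both Pcgf1/2/4-/- libraries (92.5% in wild-type). Of the peaks lost in Pcgf6-/- 22.6% had it (68.3% in wild-type). The shares were 38.5% in Pcgf1-/- (79.6%), 56.2% in Pcgf3/5-/- (78.6%) and 48.8% in Pcgf3/5/6-/- (81.3%). The SUZ12 lists of these lines held 5364 to 8077 peaks.

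The E-box CACGTG was more frequent among the peaks lost in Pcgf6-/- than among those kept, and the reverse in Pcgf1/2/4-/-. It stood in the 500 bp around the summit of 12.5% of wild-type peaks. In Pcgf6-/- it was in 21.0% of lost and 9.77% of kept peaks. In Pcgf1/2/4-/- the shares were 9.31% of peaks lost from both libraries and 24.4% of those kept in both. The 681 wild-type peaks with it lost 40.7% in Pcgf6-/-, against 21.8% of the 4773 without it. New peaks held it in 34.8% of those shared by the Pcgf1/2/4-/- libraries, 25.5% in Pcgf2/4-/-, 21.4% in Pcgf3/5-/- and 19.1% in Pcgf1-/-, but in 7.18% in Pcgf6-/- and 8.47% in Pcgf3/5/6-/-. GCGGGAA differed less, from 15.6% of lost to 12.7% of kept peaks in Pcgf6-/-. A match is a run of letters and not evidence of binding.

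Germline promoters were lost more often than promoters as a whole in both lines targeted for Pcgf6. Here and below, a gene counted as lost when none of its wild-type promoter peaks was kept. A new peak at the same promoter did not change this. A germline gene list of 44 genes, among them genes of meiotic chromosomes and of the piRNA pathway, had 22 members with a wild-type RING1B promoter peak. That is 53.7% of the 41 that were annotated, against 14.9% of all protein-coding genes. In Pcgf6-/- 19 of the 22 were lost (86.4%), where 26.4% of all 3312 protein-coding genes with such a peak were. In Pcgf3/5/6-/- 21 were lost (95.5%, 50.1% of all genes). In Pcgf1-/- and Pcgf3/5-/- 0 of the 22 were lost (14% and 12.9% of all genes). The only one in Pcgf2/4-/- was Hsf2bp (14.9% of all genes), and 1 was lost in each Pcgf1/2/4-/- library (67.8% and 72.3% of all genes), a different gene in each. The members kept in Pcgf6-/- were Tdrd6, Mei1 and Mov10l1, and in Pcgf3/5/6-/- Tdrd6. Other germline promoters were new: Gpat2 and Hormad2 carried new peaks in Pcgf1-/-, Pcgf2/4-/- and Pcgf3/5-/-, and Pcgf2/4-/- had 8 such genes, among them Sycp3 and Dmc1. These 8 were 42.1% of the 19 annotated germline genes without a wild-type peak, where 4.89% of all protein-coding genes without one had a new peak. Pcgf6-/- and Pcgf3/5/6-/- had 0 of the 19, but there the shares over all genes were 1.63% and 0.418%, so 0 is near the background.

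**Figure D4:**
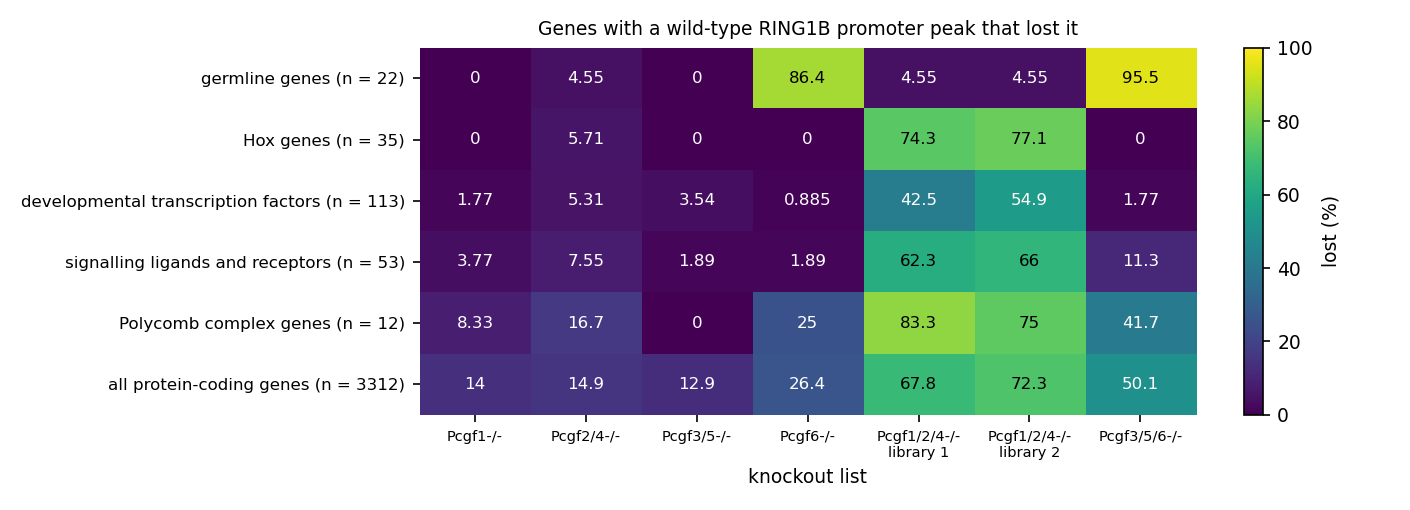
Share of genes with a wild-type RING1B promoter peak that had lost it (colour and number, %) in each knockout list (columns), for 5 gene lists and for all 3312 such protein-coding genes (rows, with the number of genes). Germline genes stand at 86.4% and 95.5% in the lines targeted for Pcgf6, and Hox genes at 74.3% and 77.1% in Pcgf1/2/4-/- and at 0 in 4 other lists. All such genes stand at 67.8% and 72.3% in Pcgf1/2/4-/-.

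Hox genes, which pattern the body axis, kept their promoter peaks in both lines targeted for Pcgf6. Their loss in Pcgf1/2/4-/- was near that of all genes with a promoter peak. Of the 39 Hox genes 35 had a wild-type RING1B promoter peak (89.7%, against 14.9% of all protein-coding genes). Of these, 0 lost it in Pcgf1-/-, Pcgf3/5-/-, Pcgf6-/- and Pcgf3/5/6-/-, and 2 lost it in Pcgf2/4-/- (Hoxb1 and Hoxc6). In the 2 Pcgf1/2/4-/- libraries 26 and 27 lost it (74.3% and 77.1%, against 67.8% and 72.3% of all genes with such a peak). In both libraries 24 lost it (68.6%, against 63.6% of all such genes). Hoxa4 was among the 24, although a new peak lay at its promoter in both libraries (folds 8.53 and 6.72). The share of the Hoxa cluster under RING1B peaks was 51.0% in wild-type, 83.9% in Pcgf6-/-, 52.5% in Pcgf1-/-, 51.2% in Pcgf3/5-/-, 41.1% in Pcgf3/5/6-/-, 21.1% in Pcgf2/4-/- and 2.25% and 2.12% in Pcgf1/2/4-/-. The window held the genes of the cluster and 2.5 kb to either side, on chromosome 6 from 52102866 to 52213374. The Hoxb cluster (chromosome 11, 96053130 to 96232070) went from 22.8% in wild-type to 50.5% in Pcgf6-/-, 5.65% in Pcgf2/4-/- and 0.529% and 0% in Pcgf1/2/4-/-. Hoxc (chromosome 15, 102749034 to 102869774) went from 28.8% to 65.3% in Pcgf6-/-, where 1 peak ran over 17917 bp against at most 4354 bp in wild-type. The Hox promoters that counted as kept in Pcgf2/4-/- lay under much shorter peaks, and those in Pcgf6-/- under longer ones.

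**Figure D5:**
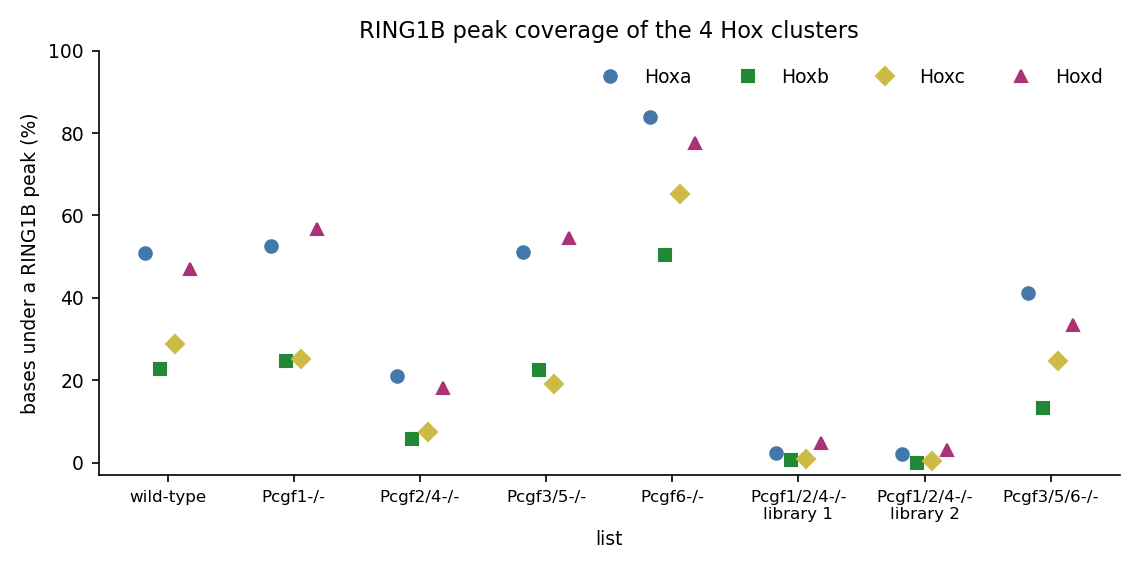
Share of bases under RING1B peaks (vertical axis, %) in the 4 Hox clusters (markers) for wild-type and each knockout list (horizontal axis), 1 library per column. Every cluster is highest in Pcgf6-/- (50.5% to 83.9%) and lies under 5% in both Pcgf1/2/4-/- libraries.

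The other regulators of development also kept nearly all their promoter peaks in the lines other than Pcgf1/2/4-/-, but lost fewer than the Hox genes in Pcgf1/2/4-/-. Of 113 developmental transcription factor genes with a wild-type promoter peak, 48 and 62 lost it in the Pcgf1/2/4-/- libraries (42 in both), against 2 in Pcgf1-/- (Gbx2 and Msx2), 6 in Pcgf2/4-/- (Cdx4, Eomes, Gata4, Otx2, Sox7 and Tbx5), 4 in Pcgf3/5-/-, 1 in Pcgf6-/- (Snai2) and 2 in Pcgf3/5/6-/- (Pou4f1 and Snai2). Of 53 genes for signalling ligands and receptors, 33 and 35 lost it in Pcgf1/2/4-/- and 6 in Pcgf3/5/6-/-, among them Dkk1, Fgf10 and Jag2. In Pcgf1/2/4-/- both lists lie below the share of all genes that lost a promoter peak for transcription factors (42.5% and 54.9% against 67.8% and 72.3%) and near it for signalling genes (62.3% and 66%). Of 18 pluripotency genes 1 had a wild-type promoter peak, Esrrb, and it was lost in Pcgf1/2/4-/- alone. That is 5.88% of the 17 that were annotated, against 14.9% of all protein-coding genes. Of 24 housekeeping genes 1 had a wild-type promoter peak (4.17%).

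Of 51 genes of the Polycomb system itself, 12 had a wild-type RING1B promoter peak (23.5%, against 14.9% of all protein-coding genes). In Pcgf6-/- 3 of the 12 were lost, a share (25%) near that of all genes (26.4%): Hdac2, E2f6 and Yaf2, which encode a histone deacetylase and subunits of PCGF6 complexes. E2f6 RNA was at 12.8 and 13.6 CPM in wild-type and 20.9 and 20.2 in Pcgf6-/- (log2 fold change 0.64, edgeR quasi-likelihood test, adjusted p = 0.0258, a call lost when any 1 library of either group was left out), and Yaf2 rose from 24.3 and 25.5 to 39.0 and 46.3 CPM (0.77, adjusted p = 0.000222). Hdac2 was at 93.0 and 89.6 against 100.0 and 109 CPM (adjusted p = 0.16). E2f6 lost its peak in Pcgf3/5/6-/- too and did not pass the test there (0.32, adjusted p = 0.296). Cbx8, a chromatin-reading subunit of canonical complexes, lost a peak of fold 18.2 in Pcgf1/2/4-/- and rose from 10.7 and 12.7 to 41.1 and 39.3 CPM (1.78, adjusted p = 5.72e-05). It also rose where the peak was kept, by 1.5 in Pcgf2/4-/- (adjusted p = 0.000247), 1.13 in Pcgf3/5/6-/- (adjusted p = 0.000756) and 0.61 in Pcgf6-/- (adjusted p = 0.0299, a call lost when any 1 library of either group was left out). Cbx2, of the same family, lost its peak in Pcgf3/5/6-/- and rose from 34.8 and 35 to 94.5 and 79.4 CPM (1.32, adjusted p = 7.59e-05). It lost the same peak in Pcgf2/4-/- and did not pass the test there (0.15, adjusted p = 0.636; -0.45 without the second knockout library). Of the PCGF genes and Rnf2, Bmi1 alone had RING1B at its promoter, with 3 wild-type peaks, of which 0 remained in either Pcgf1/2/4-/- list and 4 peaks stood there in Pcgf6-/-.

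The RNA-seq libraries give the expression of genes at lost peaks. Library totals ran from 2147968 to 7848161 counts, and 15464 genes passed a filter on low counts. The wild-type libraries differed by less than sampling noise (chi-square per degree of freedom 0.951, against 1.19 to 21.3 in the other groups), so they may be 1 sample sequenced as 2. Nothing in the labels says that libraries of a group came from separate cultures, so the p-values measure the spread between these libraries only. All lines were compared with the same wild-type libraries, and in bulk RNA fewer cells of a type and less RNA per cell cannot be told apart. A gene silent in wild-type passes the filter only where it is high elsewhere, so counts over genes that passed describe those genes and not their whole list.

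In Pcgf6-/- genes whose RING1B promoter peak was lost were raised more often than all genes tested. Of 713 tested, 389 were raised (54.6%, edgeR quasi-likelihood test, adjusted p below 0.05). The share was 42.6% of the 1563 that kept the peak and 27.8% of all 15464 genes tested. The median log2 fold change was 0.68 at lost peaks, against 0.60 and 0.03. Of the 18 lost germline genes tested, 15 were raised and 2 lowered (18.6% of all genes tested were lowered), with a median of 3.00. Among germline genes with no wild-type peak, 17 of 20 tested were raised as well, with a median of 2.63. Sycp1, a component of the synaptonemal complex, was at 2.28 and 2.11 CPM in wild-type and 76.8 and 78.0 in Pcgf6-/- (log2 fold change 5.12, SE 0.264, adjusted p = 2.72e-09). Tdrkh, a Tudor protein of the piRNA pathway, rose from 7.13 and 3.24 to 137 and 148 CPM (4.77, SE 0.199, adjusted p = 4.89e-10). Both Pcgf6-/- libraries lay far above both wild-type libraries for these genes. The promoter of Mov10l1, an RNA helicase of the same pathway, kept its peak in Pcgf6-/-, and the gene rose from 12 and 10.1 to 198 and 204 CPM (4.18, adjusted p = 3e-10).

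The lost peaks with the highest wild-type fold in Pcgf6-/- lay at Hdgfrp3 (chromosome 7, 89077741 to 89079075, fold 20.1), Ptprd (chromosome 4, 76095705 to 76097047, 19.5), Pom121l2 (chromosome 13, 22072840 to 22074426, 18.8) and Zcwpw1 (chromosome 5, 138228868 to 138229873, 18.4), whose sequence is shown above. Zcwpw1 encodes a reader of histone methylation used in meiosis. It was at 38.5 and 36.7 CPM in wild-type, 73.6 and 81.7 in Pcgf6-/- (1.04, edgeR, adjusted p = 2.82e-05) and 53.1 and 64.9 in Pcgf3/5/6-/- (0.65, adjusted p = 0.00234; not past the threshold without the second Pcgf3/5/6-/- library). Hdgfrp3 rose from 2.85 and 2.25 to 30.4 and 33.7 CPM in Pcgf6-/- (3.64, adjusted p = 6.2e-07), and rose also in Pcgf3/5/6-/-, where its peak was kept (2.20, adjusted p = 0.00038). Ptprd, a receptor phosphatase gene, did not pass the test (2.28 and 3.66 against 3.36 and 4.14 CPM), and Pom121l2 had at most 0.153 CPM in any library of these groups. A wide lost peak lay at Dpysl5 (chromosome 5, 31013417 to 31016428, fold 14), a gene of neuronal axons, which rose from 7.99 and 7.45 to 17.2 and 14.9 CPM in Pcgf6-/- (1.05, adjusted p = 0.00307) and to 36.7 and 28.7 in Pcgf3/5/6-/- (2.08, adjusted p = 1.2e-05).

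In Pcgf3/5/6-/- the same held at more promoters. Of 1304 tested genes with a lost peak 785 were raised (60.2%), against 52.9% of the 972 that kept it and 28.0% of all genes tested, with median log2 fold changes of 1.09, 1.16 and 0.05. Of 20 lost germline genes tested 16 were raised and 2 lowered (25.3% of all genes tested were lowered), and Sycp1 reached 19.3 and 15.9 CPM there (2.99, edgeR, adjusted p = 3.52e-06). Strong lost peaks lay at Id2 (chromosome 12, 25784613 to 25786508, fold 22.6), an inhibitor of basic helix-loop-helix factors, and Crabp1 (chromosome 9, 54611716 to 54614373, 23.7), a retinoic acid binding protein. Id2 rose from 23.1 and 23.5 to 164 and 170 CPM (2.84, adjusted p = 1.28e-09) and Crabp1 from 23.7 and 19.1 to 95.1 and 93.6 (2.14, adjusted p = 1.91e-06). Bcl2l11, which encodes the pro-apoptotic protein BIM and lost a peak of 4805 bp, rose from 7.28 and 8.16 to 38.9 and 49.0 CPM (2.5, adjusted p = 1.63e-07). All 3 genes rose in Pcgf6-/- as well, where their peaks were still called: Id2 by 2.27 (adjusted p = 6.78e-09), Crabp1 by 1.30 (adjusted p = 0.000143) and Bcl2l11 by 1.64 (adjusted p = 6.97e-06). The peak at Id2 was not called in Pcgf1/2/4-/- either, where the gene rose by 0.77 (adjusted p = 0.00206; not past the threshold without the second library of that line). Ppp1r3d and Esrp1 had 0 CPM in both wild-type libraries, and 4.11 and 7.44 and 6.32 and 6.08 CPM in Pcgf3/5/6-/-.

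Summed levels of markers of other cell types differed in some of these lines, but single markers of a list went opposite ways. The summed level of 6 trophoblast markers was 198 to 211 CPM in the wild-type libraries and 975 to 995 in Pcgf3/5/6-/-. It was 286 to 300 in Pcgf6-/-, 255 to 300 in Pcgf1/2/4-/- and 246 to 266 in Pcgf3/5-/-. Each of the 6 reached 1 CPM in some library. In Pcgf3/5/6-/- Krt7 (log2 fold change 8.20), Elf5 (6.60), Tfap2c (3.16) and Krt8 (2.54) rose, but Cdx2 (-1.94) and Eomes (-1.85) were lowered. In Pcgf6-/- Krt7 (4.96), Elf5 (5.43), Tfap2c (0.86) and Krt8 (1.18) rose, and Cdx2 (-3.80) and Eomes (-2.32) were lowered. The sum of 7 feeder markers was 10.8 to 15.0 CPM in wild-type, 35.8 to 38.5 in Pcgf3/5/6-/- and 27.3 to 30.9 in Pcgf6-/-, with at most 18.7 in any other line. In Pcgf3/5/6-/- Col1a1 (log2 fold change 1.06), Col1a2 (3.95) and Thy1 (3.53) rose, but Lum went from 4.42 and 3.38 CPM to 0 in both libraries. The sum of 5 neural markers was 4.36 to 7.28 CPM in wild-type, 27.2 to 27.7 in Pcgf3/5/6-/-, 18.4 to 22.9 in Pcgf6-/- and 14.2 to 16.3 in Pcgf1-/-. Nes made up most of this sum. Its level was 4.57 and 2.81 CPM in wild-type, 25.6 and 25.7 in Pcgf3/5/6-/-, 20.3 and 16.5 in Pcgf6-/- and 14.3 and 12.3 in Pcgf1-/-. Sox1, at 0.999 and 0.844 CPM in wild-type, was at 0 in Pcgf6-/- and Pcgf3/5/6-/-. The 6 primitive endoderm markers summed to 67.2 to 74.5 CPM in wild-type and 106 to 110 in Pcgf6-/-. Of these, Dab2 rose from 0 in both wild-type libraries to 42.5 and 38.5 CPM in Pcgf6-/-. Lama1 was at 72.6 and 66.1 CPM in wild-type and 63.6 and 65.0 in Pcgf6-/-. Of the feeder and neural lists, 2 markers each stayed under 1 CPM everywhere. The 5 embryonic stem cell markers summed to 903 to 2050 CPM over all libraries, with 1070 to 1080 in wild-type and the highest sums, 1930 and 2050, in Pcgf1/2/4-/-. The part of other cell types in the expression results was not tested.

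Pcgf1/2/4-/- lost the most peaks, and the share of genes raised at its lost promoters was near that of all genes. Of 1453 tested genes with a peak lost from both libraries, 242 were raised (16.7%), against 13.2% of the 538 that kept it in both and 14.4% of all genes tested, with a median log2 fold change of 0.00 (-0.11 over all genes). Leaving out 1 of its RNA libraries gave 140 or 157. Of 24 housekeeping genes, 19 were also called raised in Pcgf1/2/4-/- and 0 lowered, with a median log2 fold change of 1.31. The same median was 0.74 in Pcgf3/5/6-/- (7 raised, 1 lowered), 0.68 in Pcgf2/4-/- (1 raised) and between -0.06 and 0.13 in the other 3 lines. The part of this shift in the calls and folds of these lines was not tested. Developmental genes were among those raised: 5 of 8 tested Hox genes with a lost peak (Hoxa10, Hoxb7, Hoxb9, Hoxc5 and Hoxd9) and 11 of 31 transcription factor genes (2 lowered, 22.6% of all genes tested). Hoxd9, whose lost peak of fold 30.0 is shown above, was at 0.428 and 0.141 CPM in wild-type and 10.1 and 8.58 in Pcgf1/2/4-/- (4.93, SE 0.500, edgeR, adjusted p = 2.15e-05). Hoxa10 rose from 3.71 and 4.22 to 43.2 and 47.4 CPM (3.51, SE 0.252, adjusted p = 6.76e-07). These are large folds from low wild-type levels.

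Other strong lost peaks of Pcgf1/2/4-/- lay at genes that stayed low. En2 (chromosome 5, 28492639 to 28496362, fold 29.2), a midbrain factor, was at 2.43 and 1.97 CPM in wild-type and 2.67 and 3.16 in Pcgf1/2/4-/- (edgeR, adjusted p = 0.539). Prdm12 (chromosome 2, 31490066 to 31498186, fold 29.8), a factor of pain-sensing neurons, had 0 CPM in both groups. Pitx1 (chromosome 13, 55935725 to 55939086, fold 29.0), a hindlimb factor, rose from 0.571 and 0.563 to 2.67 and 4.06 CPM (2.55, adjusted p = 0.0129), a call that was lost without either wild-type library or the second knockout library. The widest lost peaks were those at Dmrta2 (chromosome 4, 109646803 to 109658191, 11389 bp) and Lhx2 (chromosome 2, 38202482 to 38213275, 10794 bp). Lhx2, a factor of forebrain and eye, rose from 0.143 and 0.985 to 3.74 and 5.42 CPM (2.98, adjusted p = 0.00252; not past the threshold without the second knockout library), and Dmrta2 did not pass the filter. Of 18 tested signalling genes that lost the peak 1 was raised (Wnt6) and 4 were lowered. Of all genes tested 14.4% were raised and 22.6% lowered, so the lowered count is near the background.

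In Pcgf2/4-/- genes at lost peaks were lowered more often than raised. Of 359 tested, 34 were raised (9.47%) and 97 lowered (27%), where 8.10% and 13.5% of all genes tested were. Genes that kept the peak gave nearly the same shares, 8.82% raised and 23.9% lowered. The raised count was 16 to 39 with single libraries left out, with 16 without the first wild-type library and 20 without the second knockout library. Of the strongest lost peaks, Runx3 (chromosome 4, 134706539 to 134708488, fold 24.7), a factor of T cells and neurons, was at 0.713 and 0.563 CPM in wild-type and 0.419 and 0.639 in Pcgf2/4-/- (edgeR, adjusted p = 0.946). It was at 2.67 and 4.97 CPM in Pcgf1/2/4-/- (2.57, adjusted p = 0.00239; not past the threshold without the second library of that line). Eomes (chromosome 9, 118385142 to 118389320, fold 22.4), a T-box factor of mesendoderm and trophoblast, was lowered from 11.4 and 12.2 to 5.45 and 6.39 CPM in Pcgf2/4-/- (-0.95, adjusted p = 0.011; not past the threshold without the second wild-type library). Its peak was also lost in Pcgf1/2/4-/-, where it did not pass the test (-0.20, adjusted p = 0.568), and was kept in Pcgf6-/-, where it was lowered further (-2.32, adjusted p = 4.99e-06). Hox genes went the other way: 10 of 18 tested were raised in Pcgf2/4-/- and 0 lowered, although 8 of these 10 kept a RING1B peak at the promoter.

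Pcgf1-/- and Pcgf3/5-/- lost mainly weak peaks. In Pcgf1-/- 90 of 363 tested genes at lost peaks were raised (24.8%), against 20.0% of those that kept the peak and 13.9% of all genes tested. In Pcgf3/5-/- 63 of 327 were raised (19.3%), against 19.0% and 11.1%, and 36 to 60 with single libraries left out (36 without the first knockout library, 40 and 38 without the first and second wild-type library). The strongest peak lost in Pcgf1-/- was at Tlx2 (chromosome 6, 83018116 to 83021757, fold 22.5), a homeobox gene, which was at 1.71 and 1.83 CPM in wild-type and 0.874 and 1.14 in Pcgf1-/- (edgeR, adjusted p = 0.196). The peak ended 6623 bp before the annotated start of Pcgf1, the gene edited in this line. Msx2 and Gbx2, both homeobox genes, lost their promoter peak in Pcgf1-/- and moved in opposite directions: Msx2 rose from 9.42 and 11.3 to 50.3 and 46.6 CPM (2.23, adjusted p = 5.66e-06) and Gbx2 was lowered from 63.6 and 62.2 to 29.2 and 33.1 (-1.03, adjusted p = 2.1e-05). Both promoter peaks were lost in Pcgf3/5-/- too, where neither gene passed the test (Msx2 0.24, adjusted p = 0.566; Gbx2 0.18, adjusted p = 0.294). The strongest peak lost in Pcgf3/5-/- was at Cdh4 (chromosome 2, 179177255 to 179179199, fold 18.1), a cadherin, which rose from 18.4 and 21.1 to 54.0 and 44.7 CPM (1.32, adjusted p = 0.000292). The peak was also lost in Pcgf1/2/4-/-, where Cdh4 did not pass the test (-0.16, adjusted p = 0.649).

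Hox expression differed between the lines in direction. Of the 18 Hox genes that passed the filter, 11 were raised in Pcgf1-/- (1 lowered), 10 in Pcgf2/4-/- (0), 11 in Pcgf1/2/4-/- (0) and 1 in Pcgf3/5-/- (1). In Pcgf6-/- 0 were raised and 7 lowered, and in Pcgf3/5/6-/- 1 was raised and 8 lowered (2 and 7 with the alternative RLE scaling). Of all genes tested, 13.9% were raised in Pcgf1-/-, 8.10% in Pcgf2/4-/-, 14.4% in Pcgf1/2/4-/- and 11.1% in Pcgf3/5-/-. In Pcgf6-/- and Pcgf3/5/6-/- 27.8% and 28.0% were raised. The lowered shares were 18.4% in Pcgf1-/-, 10.4% in Pcgf3/5-/-, 18.6% in Pcgf6-/- and 25.3% in Pcgf3/5/6-/-. Pcgf6-/- was also the line in which the 4 clusters were under the most RING1B. Pcgf3/5/6-/- had less of each cluster under RING1B than wild-type.

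New peaks in Pcgf6-/- differed from the rest in sequence and place. Of its 1519 new peaks 50.9% were promoter peaks, against 74.2% of wild-type peaks, 16.1% lay in introns and 26.0% between genes, and the median distance to a start was 2720 bp. Their GC content was 52.6% and their ratio of observed to expected CpG 0.429, where wild-type peaks had 63.6% and 0.741. PCGF2 was called at 89.8% of them and SUZ12 at 67.6% in the same line, and H3K4me3 at 43.9% in wild-type. All 3 shares were higher at the Pcgf6-/- peaks that met wild-type peaks, 99.3%, 95.7% and 91.3%. The PCGF2 list of Pcgf6-/- held 7739 peaks, against 4472 in wild-type. The strongest new promoter peak lay at Meis2 (chromosome 2, 115886079 to 115891581, fold 20.7 in the Pcgf6-/- list), a homeobox partner of Hox proteins. Meis2 was at 90.5 and 85.1 CPM in wild-type and 69.0 and 69.7 in Pcgf6-/- (-0.34, edgeR, adjusted p = 0.0282), a call lost when any 1 library of either group was left out. A new peak lay there also in Pcgf3/5/6-/-, with 30.6 and 30.1 CPM (-1.53, adjusted p = 7.33e-07), and in Pcgf1-/- (fold 12.5), with 75.9 and 69.7 CPM (adjusted p = 0.104).

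Slc6a9 (chromosome 4, 117506903 to 117509011, fold 17.2), a glycine transporter, was lowered from 5.28 and 6.33 to 0.996 and 0.613 CPM in Pcgf6-/- (-2.78, edgeR, adjusted p = 2.2e-05). The same peak was called in Pcgf2/4-/-, where Slc6a9 was raised to 10.9 and 13.3 CPM (1.10, adjusted p = 0.00479; not past the threshold without the first wild-type or the second knockout library). Over all 228 tested genes with a new promoter peak in Pcgf6-/-, 25.4% were raised and 25% lowered, with a median of -0.11, where 27.8% and 18.6% of all genes tested were. In Pcgf3/5/6-/- new promoters were fewer and more uniform: 6 of 67 tested genes were raised (8.96%) and 42 lowered (62.7%), with a median log2 fold change of -1.08, where 28.0% and 25.3% of all genes tested were. Among them Hoxc13 (chromosome 15, 102751599 to 102752889, fold 11.2) was lowered from 11.3 and 9.99 to 4.42 and 3.04 CPM (-1.50, adjusted p = 0.00751; not past the threshold without the second knockout library). Camk2n1, with a new peak of fold 10.9, did not pass the test in Pcgf3/5/6-/- (1.43 and 2.25 against 1.26 and 0.338 CPM, adjusted p = 0.113).

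New peaks of Pcgf2/4-/- and Pcgf1/2/4-/- lay mostly at promoters, and more often on wild-type PCGF6 peaks than the wild-type RING1B peaks did (15.2%). In Pcgf2/4-/- 75.9% of the new peaks were promoter peaks, a median of 317 bp from a start, and 23.8% lay on a wild-type PCGF6 peak. PCGF6 was called at 91.4% of them in the same line, in a PCGF6 list of 12842 peaks against 1868 in wild-type. The strongest 4 lay at Gdap2 (fold 11.6), Hpca (11.4), Fam26f (10.9) and Slc38a9 (10.6), each on a wild-type PCGF6 peak and each also called in both Pcgf1/2/4-/- lists. Gdap2 was at 82.5 and 81.0 CPM in wild-type and 63.2 and 75.5 in Pcgf2/4-/- (edgeR, adjusted p = 0.18), and none of the other 3 passed the test either (adjusted p 0.127 to 0.763). In the Pcgf1/2/4-/- libraries 67.5% and 64.7% of the new peaks were promoter peaks, and 43.7% and 42.4% lay on wild-type PCGF6 peaks. The new peaks shared by both libraries lay on wild-type PCGF6 peaks in 52.0% and on wild-type SUZ12 peaks in 3.23%. Genes at these promoters were highly expressed, with a median of 63.9 CPM in wild-type against 3.82 for genes with a wild-type RING1B peak. Of 239 tested 77 were lowered (32.2%) and 35 raised (14.6%), where 22.6% and 14.4% of all genes tested were. Lrrc58 (chromosome 16, 37867764 to 37868371, fold 14.2) was among those lowered, from 110 and 109 to 47.5 and 51.0 CPM (-1.15, adjusted p = 7.21e-06). The peak was also called in Pcgf1-/- (-0.44, adjusted p = 0.00358; not past the threshold without the second knockout library) and in Pcgf2/4-/- (-0.20, adjusted p = 0.172). In Pcgf6-/- and Pcgf3/5/6-/-, without the peak, Lrrc58 was lowered as well (-0.47 and -0.51, adjusted p = 0.00123 and 0.000801).

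New peaks of Pcgf1-/- and Pcgf3/5-/- were the narrowest outside Pcgf1/2/4-/-, with median widths of 409 and 376 bp, and 66.1% and 66.2% were promoter peaks. The strongest in Pcgf3/5-/- lay upstream of Igf2bp3 (chromosome 6, 49167506 to 49169598, fold 26.9), an RNA-binding protein, with H3K4me3 and no SUZ12 in wild-type. Igf2bp3 was at 290 and 290 CPM in wild-type and 185 and 194 in Pcgf3/5-/- (-0.62, edgeR, adjusted p = 0.0105), a call lost when any 1 library of either group was left out. In Pcgf3/5/6-/-, where a peak was also called there, it was lowered to 52.1 and 50.4 CPM (-2.5, adjusted p = 4.31e-08). A peak was called there in Pcgf1-/- too, where Igf2bp3 did not pass the test (-0.11, adjusted p = 0.649; 0.04 without the first knockout library). In Pcgf6-/- no peak was called there and the gene was lowered (-0.64, adjusted p = 0.00292). B3galnt1, with a new promoter peak of fold 13.1 in Pcgf1-/-, was lowered from 52.5 and 48.5 to 24.4 and 21.7 CPM (-1.12, adjusted p = 5.45e-06), and also in Pcgf3/5-/-, where the peak was called as well (-1.25, adjusted p = 3.05e-06). The new peak upstream of Rasgrf1 (chromosome 9, 89776211 to 89778228, fold 18 in Pcgf1-/-), a gene imprinted in mouse, lay at -27876 bp from its start, and Rasgrf1 had 0 CPM in wild-type, Pcgf1-/- and Pcgf3/5-/-.

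The peaks called in every list and in no other list than wild-type mark the ends of the range. All 7 knockout lists share the one wild-type list, so these counts are descriptions. Peaks called in all 7 lists numbered 423 (7.76%), with a median wild-type fold of 20.8 and a median width of 2370 bp. PCGF2 was called at 99.5% of them, SUZ12 at 100% and PCGF6 at 50.4%. Those with the highest fold included peaks at Nr5a1 (35.1), Gm1337 (34.3), Six2 (34.2) and Tnxb (34.2). Nr5a1, a nuclear receptor of gonads and adrenal, had at most 0.338 CPM in any library. Tnxb, a matrix protein, was at 0.285 and 0.422 CPM in wild-type and 3.79 and 6.42 in Pcgf3/5/6-/- (3.75, edgeR, adjusted p = 0.000163). Peaks called in 0 of the 7 lists numbered 145 (2.66%), with a median width of 434 bp. The strongest were at the apolipoprotein genes Apoa1 (chromosome 9, 46037832 to 46038557, fold 15.6) and Apoa4 (11.9), at Krt1 (8.93), at Ncs1 (8.72) and at Fabp2 (8.49).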

How the data were processed

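RING1B peak lists and gene counts came from E14 mouse embryonic stem cells. The authors deposited 1 narrowPeak list per sample, with fold enrichment (a ratio) and -log10 p and q values for each peak, and 1 table of whole-number counts per gene symbol. The submitters' processing notes name bcl2fastq 2, TopHat2 2.1.1, Bowtie 1.2.2, Picard 1.62, HTSeq 0.7.2, DESeq2 3.7, MACS2 2.1.1 and the build mm9, without saying which made which file. Peaks past a chromosome end of NCBIM37 numbered 0, and 0 columns were left without a sample.

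Peaks were compared by overlap of at least 1 bp and assigned to genes of the GENCODE M1 annotation (promoter: peak edge within 2.5 kb of a protein-coding start) with Python 3.11.15, pandas 2.3.3 and numpy 2.4.6. Sequences came from NCBIM37 with pyfaidx 0.9.0.4 and samtools 1.23.1, and motifs were searched on both strands within 250 bp of the summit. Wilson intervals (95%, scipy 1.17.1) cover counting error alone, because reads were not tagged per molecule.

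Deposited counts of all 14 RNA-seq libraries, 2 in each of 7 groups, entered 1 fit by edgeR 4.0.16 (R 4.3.3, TMM factors, filterByExpr, quasi-likelihood test). Adjustment followed Benjamini and Hochberg over all 15464 tested genes, the threshold was an adjusted p of 0.05, and the biological coefficient of variation was 12.3%. Of 23377 gene symbols 21001 matched the annotation. The count fit was tested on simulated data first. Alternatives were equal list lengths, stricter q values, wider or stricter overlap, a promoter window of 1 kb, DESeq2 1.42.0, RLE factors, no count filter, a replicate block and single libraries left out.

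For each knockout the text takes the nearest protein-coding gene of the 4 lost peaks with the highest wild-type fold, the 2 widest lost peaks, the 3 highest kept and the 4 highest new peaks, then the 5 highest peaks kept in or lost from all 7 lists, up to 4 lost and 4 kept members per gene list, and Rnf2 and the PCGF genes; some of these are not reported here. Hdgfrp3, Zcwpw1 and others that the text takes up again fall under this rule, and Mov10l1, Cbx2, Cbx8, E2f6, Yaf2 and Hdac2 come from the gene lists. The peak lists studied, the gene lists and the rule were chosen with earlier results of these data known.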

Additional observations from a re-analysis of the deposited data

How the results depend on the processing

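Of the counts of lost peaks 26 stayed within 1.5 times the full-list count under the alternatives and 8 did not, and of the counts of new peaks 17 did and 17 did not. With every list shortened to 1814 peaks, lost peaks numbered 305 in Pcgf1-/-, 701 in Pcgf2/4-/-, 256 in Pcgf3/5-/-, 384 in Pcgf6-/-, 1176 and 1266 in the Pcgf1/2/4-/- libraries (1086 in both) and 452 in Pcgf3/5/6-/-, of an equally short wild-type list. New peaks then numbered 310, 620, 283, 421, 1092 and 1191 (780 in both) and 306. With a -log10 q of at least 10, new peaks numbered 705 in Pcgf2/4-/-, 646 in Pcgf3/5-/-, 1009 in Pcgf6-/-, 365 and 325 in the Pcgf1/2/4-/- libraries and 212 in both. Counting wild-type peaks within 1 kb as kept left 979 new peaks in Pcgf6-/-. With 1 Pcgf1/2/4-/- library alone, lost peaks were 4157 to 4358 and new peaks 625 to 635. With a promoter window of 1 kb, promoter peaks made up 63.0%, 53.2%, 60.8%, 73.7%, 66.2%, 66.7% and 66.5% of lost peaks in the order Pcgf1-/-, Pcgf2/4-/-, Pcgf3/5-/-, Pcgf6-/-, Pcgf1/2/4-/- (first, second) and Pcgf3/5/6-/-, and 65.8% of those lost from both Pcgf1/2/4-/- libraries. With the stricter q they made up 65.5% in Pcgf2/4-/-, 74.2% in the second Pcgf1/2/4-/- library and 73.7% in both. The causes of these shifts were not tested, beyond shorter lists holding fewer peaks.

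Counts of raised genes at lost promoters stayed within 1.5 times in 59 of 66 alternatives. With 1 library left out they ran from 61 to 98 in Pcgf1-/-, 16 to 39 in Pcgf2/4-/-, 36 to 60 in Pcgf3/5-/-, 330 to 350 in Pcgf6-/-, 140 to 171 in Pcgf1/2/4-/- and 687 to 706 in Pcgf3/5/6-/-. With the wild-type libraries summed as 1, an alternative chosen after seeing the data, they were 75, 29, 50, 355, 195 and 752 in the order Pcgf1-/-, Pcgf2/4-/-, Pcgf3/5-/-, Pcgf6-/-, Pcgf1/2/4-/- and Pcgf3/5/6-/-. RLE factors in place of TMM moved log2 fold changes by a median of 0.01 to 0.09. A replicate block gave 88, 29, 58, 376, 231 and 770 raised genes; the replicate numbers did not pair the samples (correlations of -0.462 to 0.375 over 21 pairs of groups). Of 675 alternative values for 75 comparisons of named genes 630 kept direction and side of the threshold, 38 lost the call, 1 gained it and 6 changed sign, none of them for a gene called in that line. Those 6 came with 1 library left out: Runx3 in Pcgf2/4-/- ran from -0.58 to 0.06, Cbx2 in Pcgf2/4-/- from -0.45 to 0.43, Igf2bp3 in Pcgf1-/- from -0.17 to 0.04, Cdh4 in Pcgf1/2/4-/- from -0.31 to 0.01 and Msx2 in Pcgf3/5-/- from -0.11 to 0.48.

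Peak lists carry no read numbers, so a lost peak means one not called at this depth, and a line with 1 RING1B library has no measure of replicate error.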

Other observations

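Of 7 genes for cyclin-dependent kinase inhibitors, which halt the cell cycle, 3 had a wild-type RING1B promoter peak (42.9%, against 14.9% of all protein-coding genes). The peak at Cdkn2a, which encodes INK4A and ARF, had a wild-type fold of 6.91 and was not called in Pcgf6-/-, Pcgf3/5/6-/- or either Pcgf1/2/4-/- list. Cdkn2a RNA was at 5.14 and 6.33 CPM in wild-type. It rose to 15.7 and 13.2 CPM in Pcgf6-/- (log2 fold change 1.33, edgeR quasi-likelihood test, adjusted p = 0.000437), to 14.9 and 14 in Pcgf1/2/4-/- (1.33, adjusted p = 0.00398) and to 17.7 and 22 in Pcgf3/5/6-/- (1.78, adjusted p = 5.91e-05). In each of these 3 lines both libraries lay above both wild-type libraries. The median log2 fold change of the 24 housekeeping genes was 1.31 in Pcgf1/2/4-/-, 0.74 in Pcgf3/5/6-/- and -0.06 in Pcgf6-/-. The part of this shift in the Cdkn2a values was not tested.

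Loss and gain of RING1B peaks were uneven over chromosomes in some lines. In Pcgf2/4-/- 79 of 139 wild-type peaks on chromosome X were lost (56.8%) and 144 of 347 on chromosome 4 (41.5%), where 29.4% were lost in all. At wild-type folds of 3.25 to 6.33 the lost share was 74.4% on X and 57.7% on the autosomes, and at folds of 8.72 to 13.8 41.5% and 18.5%. In Pcgf3/5-/- chromosome 14 had 101 of the new peaks (10.3%, where it held 3.19% of wild-type peaks) and lost 15 of 174 (8.62%), and its genes without a RING1B promoter peak had a median log2 fold change of 0.22, against -0.04 to 0.04 on the other chromosomes. In Pcgf2/4-/- chromosome 3 had 111 of the new peaks (8.76% against 5.04%) and lost 19.6%, and its genes without a peak had a median of 0.17. The part of chromosome copy number in these values was not tested.

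A region at Mid1 (chromosome X, 166408276 to 166414508) and one near Pgk2 (chromosome 17, 39980004 to 39983716) held new peaks in all 7 knockout lists. The folds were 5.46 to 12.7 at Mid1 and 1.84 to 2.86 near Pgk2. The Hoxa4 peak shown in the report was new in 6 lists, with folds of 8.16 in Pcgf2/4-/-, 7.94 in Pcgf1-/-, 8.66 in Pcgf6-/-, 7.07 in Pcgf3/5-/- and 8.53 and 6.72 in Pcgf1/2/4-/-.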
